A study of Mus musculus with 8 samples.

Results

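A set of 34 genes of myelin and of mature oligodendrocytes, the cells that wrap axons of the central nervous system, were followed in RNA-seq of mouse corpus callosum. They were taken from the count table by symbol, and all 34 of 34 listed symbols were found among its 41128 genes. The symbols were chosen as known myelin proteins and oligodendrocyte markers, not by a threshold on these data, although results of the same data were known when the list was drawn up. Every library came from the PLP-150Q strain, in which a promoter active in oligodendrocytes drives a mutant huntingtin fragment in those cells, a model of Huntington's disease in white matter. The LAQ group held 4 libraries (replicates 5 to 8) of 5-month-old PLP-150Q mice that had been given LAQ, read here as laquinimod, an oral immunomodulator, at 5 mg/kg for 2 months from the age of 3 months. The control group held 4 libraries (replicates 1 to 4) of PLP-150Q mice of the same age given purified water for that time. Both groups carry the transgene and no library of a mouse without it was analysed here, so the comparison is of treatment within the model. Because every mouse carried the transgene, the levels of these 34 genes are those of the model and not of normal white matter. The transgene acts in oligodendrocytes, while some of the 34 genes are expressed in other cells as well.

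Oligodendrocytes extend flat processes that spiral round the axon and lose their cytoplasm, so that sheets of membrane are pressed together into compact myelin. Basic proteins such as Mbp hold the inner faces of the membrane together, tetraspan proteins organise the membrane, and cytoskeletal and adhesion proteins shape the loops that keep their cytoplasm and touch the axon. Mature oligodendrocytes also make enzymes and secreted proteins that supply lipid precursors, iron and lysophospholipids. Mutant huntingtin in oligodendrocytes has been linked to lower activity of Myrf, the transcription factor that drives many of these genes.

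The LAQ libraries held 9634156 to 12021429 counted reads and the control libraries 8790749 to 11972197. Values per library are CPM, reads of a gene relative to the library's total, with TMM factors applied to the totals. Libraries of the same group all differed beyond counting noise, since chi-square divided by its degrees of freedom was 7.81 to 25.7 for pairs of LAQ libraries and 4.25 to 6.05 for pairs of control libraries, and the 3 highest values were those of pairs with LAQ 7. The series' design text counts 4 treated and 4 control mice, so each library is taken as 1 mouse. The 5 defining oligodendrocyte markers (Mbp, Mog, Mag, Mobp and Cldn11) were present in every library and summed to 9012 to 11755 CPM in LAQ and 8429 to 9931 CPM in control. The 4 markers of Schwann cells, which make myelin in peripheral nerve, summed to no more than 3.05 CPM. The pieces also held neuronal RNA, with 6 pan-neuronal markers at 4301 to 5859.5 CPM in LAQ and 5470.0 to 6019 CPM in control.

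The 34 genes were higher on average in LAQ libraries, by a small amount, and no single member passed the main test. Together they took 2.00, 1.63, 2.03 and 1.94% of the counts in LAQ 5, 6, 7 and 8, against 1.74, 1.60, 1.48 and 1.80% in control 1, 2, 3 and 4. Mbp alone made up 0.680% to 0.898% of the counts in LAQ and 0.635% to 0.769% in control. LAQ 5, 7 and 8 lay above all control libraries in that share of the 34 genes, and LAQ 6 lay among the control libraries. All 34 passed the filter on low counts. The log2 fold change of LAQ over control was above 0 for 33 of 34 members, against 49.7% of the 15771 genes tested, and Cryab was the exception at -0.0095. Their median log2 fold change was 0.16, with a range of -0.0095 to 0.59, beside a median of -0.0012 over all genes tested. Some lists of other cell types' markers also lay wholly to one side of 0. All 6 ependymal markers had log2 fold changes above 0, with a median of 0.70, 5 of them at an unadjusted edgeR p under 0.05 and 0 after adjustment. The 6 summed to 55.0 to 66.3 CPM in LAQ and 37.0 to 48.1 CPM in control, with no overlap between the groups. All 6 pan-neuronal markers and all 6 endothelial markers had log2 fold changes below 0, with medians of -0.057 and -0.24, and 0 of either list had an unadjusted edgeR p under 0.05. The endothelial markers summed to 157 to 317 CPM in LAQ and 249.5 to 313 CPM in control. Of the 12 cortical excitatory neuron markers, 8 had log2 fold changes below 0, with a median of -0.15. At an unadjusted edgeR p under 0.05, 4 were lower and 0 higher, beside 6.33% and 4.77% of all genes tested. After adjustment 0 remained, and DESeq2 called 2 lower, beside 0.662% of its adjusted genes. All 6 choroid plexus markers were above 0, with a median of 0.63, and 0 had an unadjusted edgeR p under 0.05. The part of ependymal, endothelial and pan-neuronal RNA in the members' values was not tested. In bulk tissue, a difference in the number of oligodendrocytes and a difference in RNA per cell cannot be told apart.

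By edgeR's quasi-likelihood test with Benjamini-Hochberg adjustment over all genes, 0 of 34 members had an adjusted p under 0.05, where the share of all genes called was 0%. At an unadjusted edgeR p under 0.05, 9 members were higher in LAQ and 0 lower. The higher ones are 26.5% of the members, against 4.77% of all genes tested, and 6.33% of all genes were lower at that level. The adjusted p of the members ran from 0.181 (Tspan2) to 0.981 (Il33). DESeq2 on the same counts called 1 member, Tspan2, as higher, where 0.175% of its adjusted genes were called higher. It gave 10 members an unadjusted p under 0.05, all higher. Of all genes with a DESeq2 p-value, 3.03% were higher and 3.65% lower at that level. In 5 members (Tspan2, Adamts4, Cnp, Qdpr and Omg) the 4 LAQ libraries lay wholly above the 4 control libraries, 14.7% of the members against 2.78% of all genes tested, and in 0 members wholly below, against 3.61% of all genes tested. A further 10 members (29.4%) had exactly 3 LAQ libraries above the highest control library, against 9.54% of all genes tested. Without LAQ 6, 15 of 34 members were higher at an unadjusted edgeR p under 0.05, beside 4.00% of all genes higher and 5.48% lower. Without control 3, 6 members were higher, beside 4.98% of all genes higher and 5.67% lower. Without LAQ 7, 9 members were higher, beside 8.92% of all genes higher and 10.8% lower. In each of these fits 0 members were lower.

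**Figure D1:**
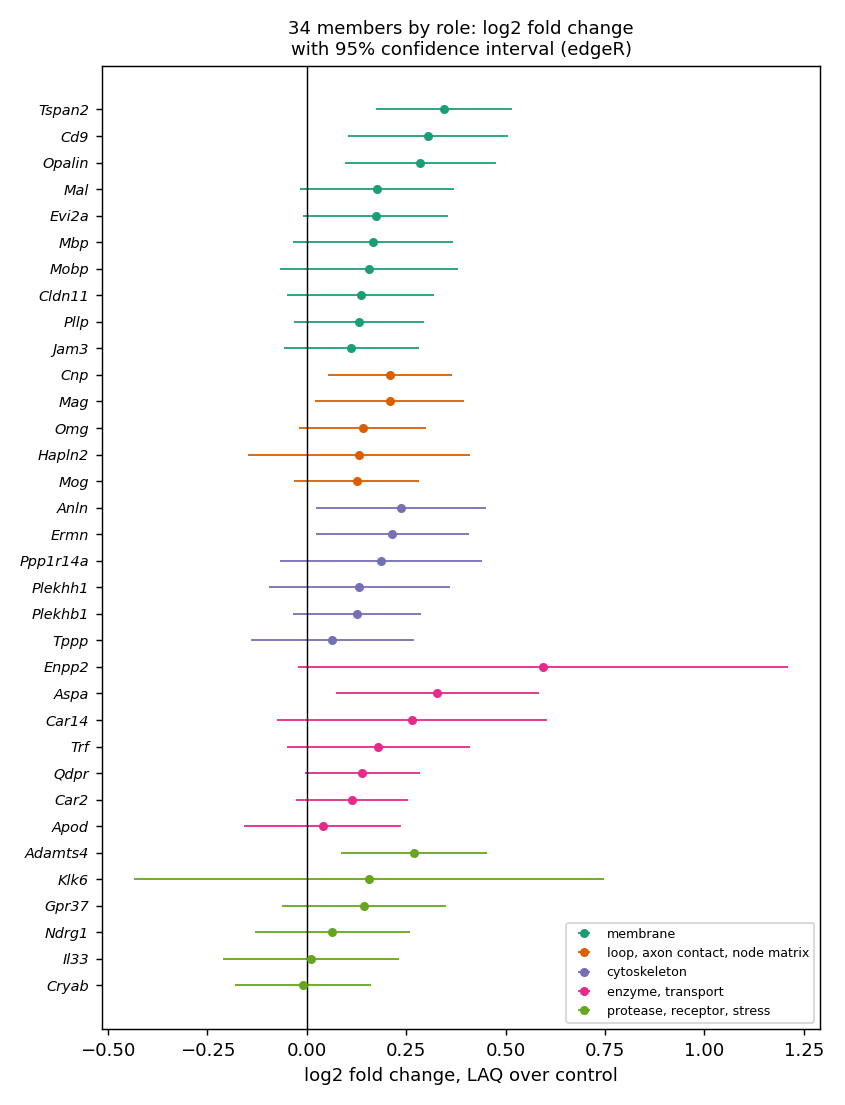
Log2 fold change of LAQ over control (x axis) for the 34 members (y axis, grouped by role in colour), with the 95% confidence interval from edgeR. The points lie to the right of 0 except for Cryab, and most of the intervals include 0.

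The members that make up the myelin membrane had log2 fold changes above 0 in 10 of 10 cases, with a median log2 fold change of 0.17. Of these 10, 3 were higher at an unadjusted edgeR p under 0.05, beside 4.77% of all genes tested. Tspan2, a tetraspanin (a protein that crosses the membrane several times and organises its partners) of the oligodendrocyte surface, had 168, 152, 177 and 157 CPM in LAQ 5, 6, 7 and 8, against 124, 116, 139 and 136 CPM in control 1, 2, 3 and 4. The groups did not overlap, and LAQ over control gave a log2 fold change of 0.35 ± 0.079 (SE), at an edgeR adjusted p of 0.181 and a DESeq2 adjusted p of 0.0175. Leaving out each library in turn, its log2 fold change stayed between 0.30 and 0.39. Cd9, a tetraspanin that many other cell types carry as well, stood at 160.4, 140.0, 153 and 174 CPM in LAQ 5, 6, 7 and 8, against 143, 112, 119 and 133 CPM in control 1, 2, 3 and 4. LAQ 6 was the only LAQ library within the control range, and the log2 fold change of Cd9 was 0.30 ± 0.092 (SE). Opalin, a glycoprotein found at the paranodal loops of central myelin, had 69.9, 77.6, 80.7 and 83.2 CPM in LAQ 5, 6, 7 and 8, against 72.3, 61.8, 57.0 and 64.1 CPM in control 1, 2, 3 and 4. Here LAQ 5 lay below control 1 and the other LAQ libraries were above every control, with a log2 fold change of 0.29 ± 0.087 (SE). The edgeR adjusted p was 0.278 for both Cd9 and Opalin.

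Mbp and Mobp, the membrane members of highest level, had overlapping groups. Mbp (myelin basic protein) had 8110.1, 6885, 8887 and 8487 CPM in LAQ 5, 6, 7 and 8, against 7415, 7414, 6391 and 7619.8 CPM in control 1, 2, 3 and 4. LAQ 5, 7 and 8 exceeded every control library and LAQ 6 was lower than control 1, 2 and 4, and the log2 fold change came to 0.17 ± 0.092 (SE), with a 95% interval of -0.035 to 0.37 and an edgeR adjusted p of 0.521. Mobp, a further basic protein of compact myelin, stood at 1475, 1399.9, 1966 and 1692 CPM in LAQ 5, 6, 7 and 8, against 1418, 1488, 1383 and 1577 CPM in control 1, 2, 3 and 4. Only LAQ 7 and LAQ 8 were above the controls, and the log2 fold change of Mobp was 0.16 ± 0.10 (SE), or 0.054 without LAQ 7. Mal, a membrane protein that sorts proteins into membrane rafts, averaged 203 ± 27.3 CPM in LAQ and 179.7 ± 4.68 CPM in control (SD, n = 4 each), and its log2 fold change of 0.18 was 0.081 without LAQ 7. The remaining membrane genes were Pllp (plasmolipin, 0.13 on the log2 scale), Cldn11 (the claudin of the tight junctions between myelin turns, 0.14), Jam3 (a junctional adhesion molecule, 0.11) and Evi2a, a membrane protein gene that lies within an intron of Nf1 (0.17). Without LAQ 7, Pllp was 0.084, and Jam3 was 0.069 without control 2 and 0.18 without control 1. Each of these 4 had overlapping groups and an edgeR adjusted p of 0.462 to 0.623.

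All 5 members of the open loops, the axon contact and the nodal matrix had positive log2 fold changes, with a median of 0.14. Cnp, an RNA-binding phosphodiesterase that keeps cytoplasmic channels in myelin open, had 1199, 1075, 1194 and 1067 CPM in LAQ 5, 6, 7 and 8, against 1029, 987, 916 and 989 CPM in control 1, 2, 3 and 4. The groups did not overlap, and the log2 fold change was 0.21 ± 0.071 (SE, edgeR adjusted p = 0.325). Omg, a surface glycoprotein of oligodendrocytes and neurons that binds the Nogo receptor, had 209, 242, 207 and 196 CPM in LAQ 5, 6, 7 and 8, against 194, 195, 193 and 193 CPM in control 1, 2, 3 and 4. Its 4 control libraries lay within 2 CPM of each other and all LAQ libraries were above them, LAQ 6 by most and LAQ 8 by least. The log2 fold change of Omg was 0.14 ± 0.073 (SE, edgeR adjusted p = 0.493), and 0.075 without LAQ 6. Mag, the adhesion molecule of the innermost turn that contacts the axon, stood at 570.1, 499, 629 and 551 CPM in LAQ 5, 6, 7 and 8, against 511, 494, 431 and 510.5 CPM in control 1, 2, 3 and 4. LAQ 6 lay between the controls and the other LAQ libraries lay above them, for a log2 fold change of 0.21 ± 0.086 (SE) that was 0.15 without LAQ 7. Mog, an immunoglobulin-like protein on the outermost turn, had 202, 197, 236 and 208 CPM in LAQ 5, 6, 7 and 8, against 202, 187, 191 and 193 CPM in control 1, 2, 3 and 4. LAQ 5, 7 and 8 were above the controls, LAQ 5 by less than 1 CPM, and the log2 fold change of Mog was 0.13 ± 0.072 (SE), or 0.066 without LAQ 7. Hapln2, a link protein of the matrix at nodes of Ranvier, had a log2 fold change of 0.13 ± 0.13 (SE), and 0.015 without LAQ 7, 0.073 without control 1 and 0.22 without LAQ 5.

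**Figure D2:**
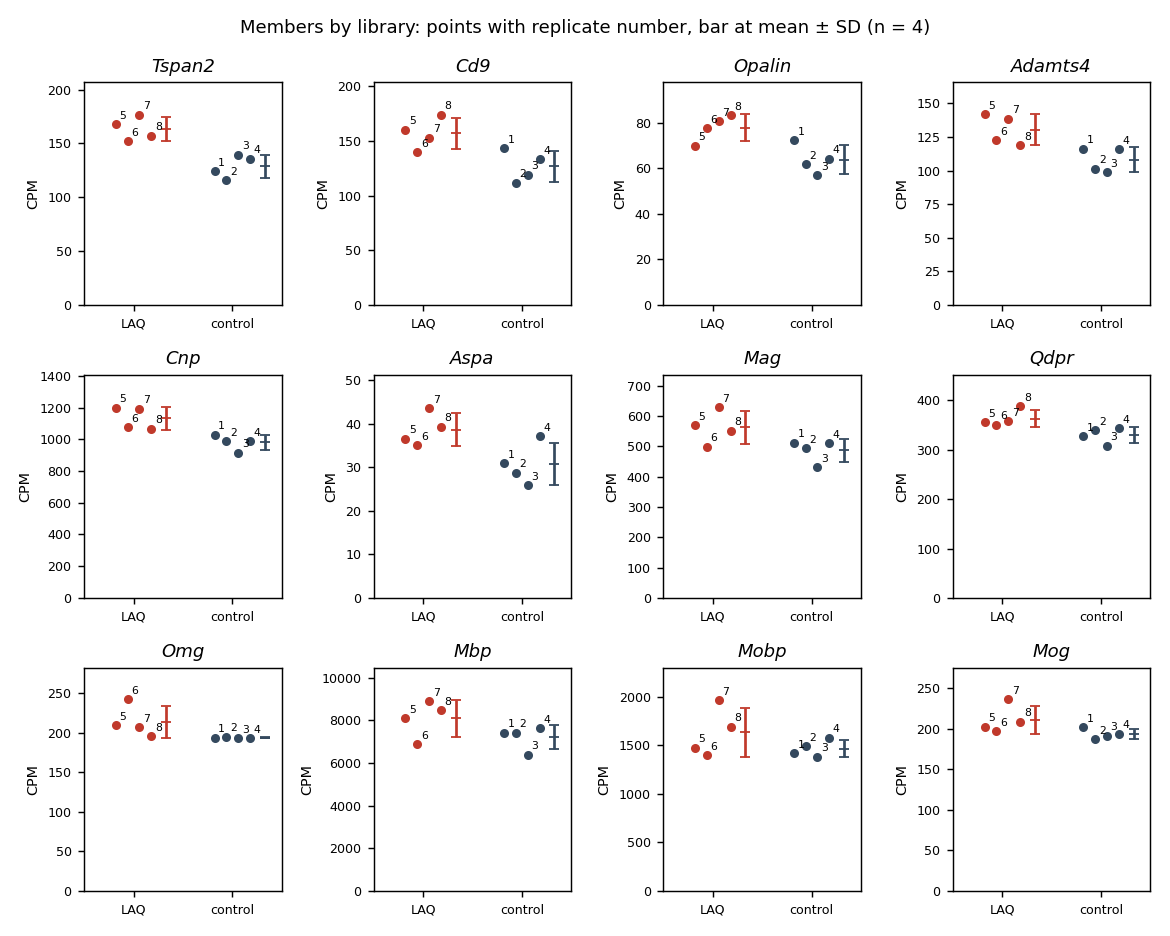
CPM (y axis, from 0) of 12 members in each LAQ library (left) and control library (right), with the replicate number beside each point and a bar at the mean with its SD (n = 4). Tspan2, Adamts4, Cnp, Qdpr and Omg have no overlap between the groups, while Mbp, Mobp and Mog have LAQ 6 among the control libraries.

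The 6 cytoskeletal and adaptor members were also all above 0, with a median log2 fold change of 0.16. Ermn (ermin), an actin-binding protein of myelinating oligodendrocytes, had 143, 126, 171 and 141 CPM in LAQ 5, 6, 7 and 8, against 127, 122, 123 and 129 CPM in control 1, 2, 3 and 4. LAQ 7 was far above the other libraries, LAQ 6 lay among the controls, and the log2 fold change of 0.21 ± 0.088 (SE) was 0.12 without LAQ 7. Anln (anillin), a septin and actin scaffold, had 97.8, 89.9, 87.6 and 92.2 CPM in LAQ 5, 6, 7 and 8, against 95.3, 72.1, 69.1 and 75.0 CPM in control 1, 2, 3 and 4. Control 1 overlapped the LAQ libraries and the other controls were below all of them, with a log2 fold change of 0.24 ± 0.10 (SE) and an edgeR adjusted p of 0.408. Ppp1r14a, an inhibitor of myosin phosphatase, stood at 0.19 ± 0.12 (SE) on the log2 scale and Plekhb1, a pleckstrin-homology protein, at 0.13 ± 0.074 (SE). Plekhh1, a larger protein with pleckstrin-homology and FERM domains, had 0.13, or 0.011 without LAQ 7. Tppp, a tubulin polymerisation factor of oligodendrocytes that neurons express too, had 829, 801, 640.1 and 662 CPM in LAQ 5, 6, 7 and 8, against 649, 731, 741 and 682 CPM in control 1, 2, 3 and 4. It was lowest of all in LAQ 7, which was the highest library of 18 members, and its log2 fold change was 0.065 ± 0.094 (SE), which ran from 0.0030 without LAQ 5 to 0.12 without LAQ 7.

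Among the 7 enzymes and transport proteins the median log2 fold change was 0.18, and 7 of 7 were above 0. Aspa, which releases acetate from N-acetylaspartate for lipid synthesis, had 36.6, 35.1, 43.6 and 39.3 CPM in LAQ 5, 6, 7 and 8, against 31.0, 28.7, 25.9 and 37.2 CPM in control 1, 2, 3 and 4. LAQ 5 and LAQ 6 lay below control 4 and above the other 3 controls, and the log2 fold change was 0.33 ± 0.12 (SE, edgeR adjusted p = 0.351). Qdpr, the reductase that regenerates tetrahydrobiopterin, had 356, 351, 357 and 388 CPM in LAQ 5, 6, 7 and 8, against 327, 339.8, 308 and 343 CPM in control 1, 2, 3 and 4. All LAQ libraries were above all controls, by a log2 fold change of 0.14 ± 0.066 (SE, edgeR adjusted p = 0.457). Car2, a cytosolic carbonic anhydrase, averaged 302 ± 17.9 CPM in LAQ and 279.5 ± 6.11 CPM in control (SD, n = 4 each), and Trf (transferrin, the iron carrier) had 70.5, 66.7, 92.6 and 84.0 CPM in LAQ 5, 6, 7 and 8, against 65.0, 71.6, 65.0 and 75.4 CPM in control 1, 2, 3 and 4. Trf was above every control in LAQ 7 and LAQ 8 only. Their log2 fold changes were 0.11 for Car2 and 0.18 for Trf, and that of Trf was 0.088 without LAQ 7. Apod, a lipocalin that binds lipids, had 388, 344, 377 and 405 CPM in LAQ 5, 6, 7 and 8, against 424, 341, 324 and 382 CPM in control 1, 2, 3 and 4. The highest Apod library was control 1 and the log2 fold change was 0.040 ± 0.091 (SE), with a 95% interval of -0.16 to 0.24.

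Enpp2 had the highest log2 fold change of the 34 members and the widest error. It encodes autotaxin, which makes lysophosphatidic acid, and it is expressed in the choroid plexus as well as in oligodendrocytes. Enpp2 had 3154, 1488, 1879 and 2203 CPM in LAQ 5, 6, 7 and 8, against 1872, 860.0, 1000.5 and 2045 CPM in control 1, 2, 3 and 4. LAQ 5 and LAQ 8 were above every control, LAQ 6 and LAQ 7 lay among the controls, and the log2 fold change was 0.59 ± 0.28 (SE), with a 95% interval of -0.021 to 1.21 and an edgeR adjusted p of 0.457. It was 0.36 without LAQ 5 and 0.81 without control 4. The 6 choroid plexus markers (Ttr, Kl, Clic6, Folr1, Kcnj13 and Otx2), of which 0 were at 0 in all libraries, summed to 3684, 1301, 1667 and 3572 CPM in LAQ 5, 6, 7 and 8. In control 1, 2, 3 and 4 they summed to 2075, 394, 806 and 2541 CPM. Control 2 and control 3 were the lowest libraries, and LAQ 5 and LAQ 8 the highest, for both Enpp2 and these markers. With the choroid plexus score as a covariate, the log2 fold change of Enpp2 was 0.18 ± 0.11 (SE). Car14, a membrane-bound carbonic anhydrase, had 45.3, 31.1, 42.8 and 43.9 CPM in LAQ 5, 6, 7 and 8, against 31.7, 29.1, 29.4 and 45.0 CPM in control 1, 2, 3 and 4. Its highest libraries were LAQ 5 and control 4, and its log2 fold change of 0.26 ± 0.16 (SE) was 0.088 with the choroid plexus score and 0.44 without control 4. Cd9 stood at 0.19 ± 0.078 (SE) in that fit and Tspan2 at 0.31 ± 0.091 (SE). In that fit 5 members were higher and 0 lower at an unadjusted edgeR p under 0.05, beside 3.24% and 4.67% of all genes tested. The score was chosen as a covariate after the data had been seen. It ran from -0.34 to 1.08 in LAQ and from -1.83 to 0.68 in control. Its highest values were in LAQ 5 and LAQ 8 and its lowest in control 2 and control 3, so it is partly confounded with treatment.

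**Figure D3:**
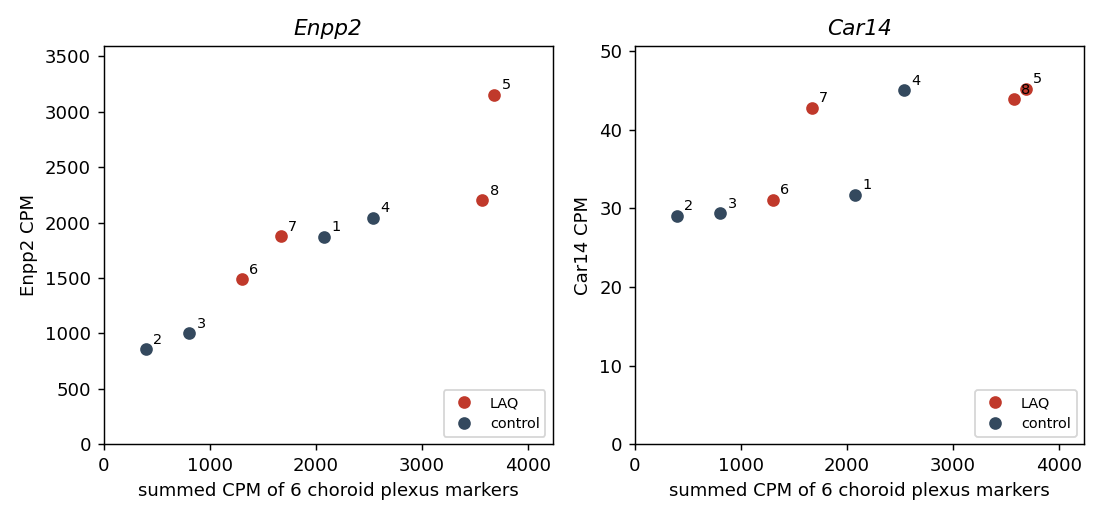
CPM of Enpp2 (left panel, y axis) and Car14 (right panel, y axis) against the summed CPM of 6 choroid plexus markers (x axis) in each LAQ and control library, with replicate numbers beside the points. Control 2 and control 3 have the lowest marker sums and the lowest Enpp2, and LAQ 5 and LAQ 8 the highest of both.

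The proteases, receptors and stress genes had log2 fold changes above 0 in 5 of 6 cases, with a median of 0.10. Adamts4, a secreted protease that cuts proteoglycans, had 142, 122, 139 and 119 CPM in LAQ 5, 6, 7 and 8, against 116, 101, 99.0 and 116 CPM in control 1, 2, 3 and 4. The groups did not overlap, and the log2 fold change was 0.27 ± 0.085 (SE, edgeR adjusted p = 0.285). Gpr37, a receptor that restrains oligodendrocyte differentiation in mice, stood at 0.14 ± 0.095 (SE) and Ndrg1, a protein of the stress response and of myelin upkeep, at 0.064 ± 0.089 (SE). Without control 3, Gpr37 was 0.065 and Ndrg1 0.0075, and Ndrg1 was 0.12 without LAQ 6. Klk6, a secreted serine protease, was the member of lowest level, with 4.10, 2.97, 7.41 and 6.76 CPM in LAQ 5, 6, 7 and 8, against 4.59, 4.90, 4.12 and 5.38 CPM in control 1, 2, 3 and 4. It was above the controls in LAQ 7 and LAQ 8 and below all of them in LAQ 5 and LAQ 6, and its log2 fold change of 0.16 ± 0.27 (SE) was -0.059 without LAQ 7. Cryab, a small heat shock protein of oligodendrocytes and astrocytes, had 225, 210.3, 221 and 234 CPM in LAQ 5, 6, 7 and 8, against 251, 215, 199 and 230.2 CPM in control 1, 2, 3 and 4. The 4 LAQ libraries lay within the range of the controls, and the 95% interval of the log2 fold change was -0.18 to 0.16. Il33, a nuclear alarmin of mature oligodendrocytes and astrocytes, had 41.0, 42.2, 55.7 and 42.0 CPM in LAQ 5, 6, 7 and 8, against 46.3, 45.3, 43.1 and 44.9 CPM in control 1, 2, 3 and 4. LAQ 7 was the highest library and the other 3 LAQ libraries were below all controls, so the log2 fold change of 0.012 was -0.11 without LAQ 7.

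Per kilobase of exon, the order of the members differed from their order in CPM, since exon lengths ran from 1.37 kb (Ppp1r14a) to 9.06 kb (Anln). Mbp was highest, at 956 ± 102 in LAQ and 851 ± 65.5 in control CPM per kb (SD, n = 4 each). Cnp followed at 312 ± 19.9 in LAQ and 269 ± 13.0 in control CPM per kb, then Plekhb1 at 283 ± 15.1 in LAQ and 259.6 ± 18.2 in control, within the spread of Cnp in control. Enpp2 stood at 377 ± 123 in LAQ and 249.9 ± 104 in control CPM per kb, and its spread covers the means of Cnp and Plekhb1 in both groups. Mobp had 238 ± 37.1 in LAQ and 214 ± 12.5 in control CPM per kb and Qdpr 203 ± 9.44 in LAQ and 184 ± 8.85 in control. Mag (138 ± 13.1 in LAQ and 119.5 ± 9.33 in control), Car2 (125 ± 7.39 in LAQ and 115 ± 2.52 in control) and Mog (124 ± 10.3 in LAQ and 113 ± 3.67 in control CPM per kb) were neighbours whose control values did not differ beyond their spread. At the low end were Aspa at 6.49 ± 0.625 in LAQ and 5.15 ± 0.806 in control and Klk6 at 3.51 ± 1.40 in LAQ and 3.14 ± 0.351 in control CPM per kb. These levels also depend on where reads could be assigned. In GENCODE M21, 18 of 34 members share 0 exon bases with another gene, but Trf shares 63.5% with Gm20425 on the same strand, which the count table lists at a total of 0. Pllp shares 54.2% and Jam3 36.2% with genes on the opposite strand. The count table lists neither of these genes, Gm45767 for Pllp and Gm48796 for Jam3, under those symbols. The strand setting and annotation release of the counting were not given, so the levels of Pllp and Jam3 remain uncertain. The level of Trf is uncertain under any strand setting, because its overlap is on the same strand.

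Most members had their highest and lowest values in the same few libraries. LAQ 7 held the highest value of 18 of 34 members, LAQ 8 of 7, LAQ 5 of 6, LAQ 6 of 1 and control 1 of 2. Control 3 held the lowest value of 20 members and control 2 of 7. The median member deviated from its own mean log2 CPM by 0.063, -0.043, 0.19 and 0.12 in LAQ 5, 6, 7 and 8. In control 1, 2, 3 and 4 it deviated by -0.027, -0.10, -0.18 and -0.022. LAQ 6 was thus below control 1 and control 4 on this measure, and the other LAQ libraries were above all controls. The 12 cortical excitatory neuron markers summed to 2285 CPM in LAQ 7 and to 3307 to 3843 CPM in the other LAQ libraries, against 3317 to 3850.0 CPM in control. The library with the largest share of counts in the 34 genes also had the lowest sum of these neuronal markers. Their score (mean z score of log2 CPM) was 0.11, 0.37, -1.22 and -0.61 in LAQ 5, 6, 7 and 8. In control 1, 2, 3 and 4 it was 0.26, 0.51, 0.45 and 0.15. LAQ 5, 7 and 8 were thus below every control library, so the score is partly confounded with treatment.

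**Figure D4:**
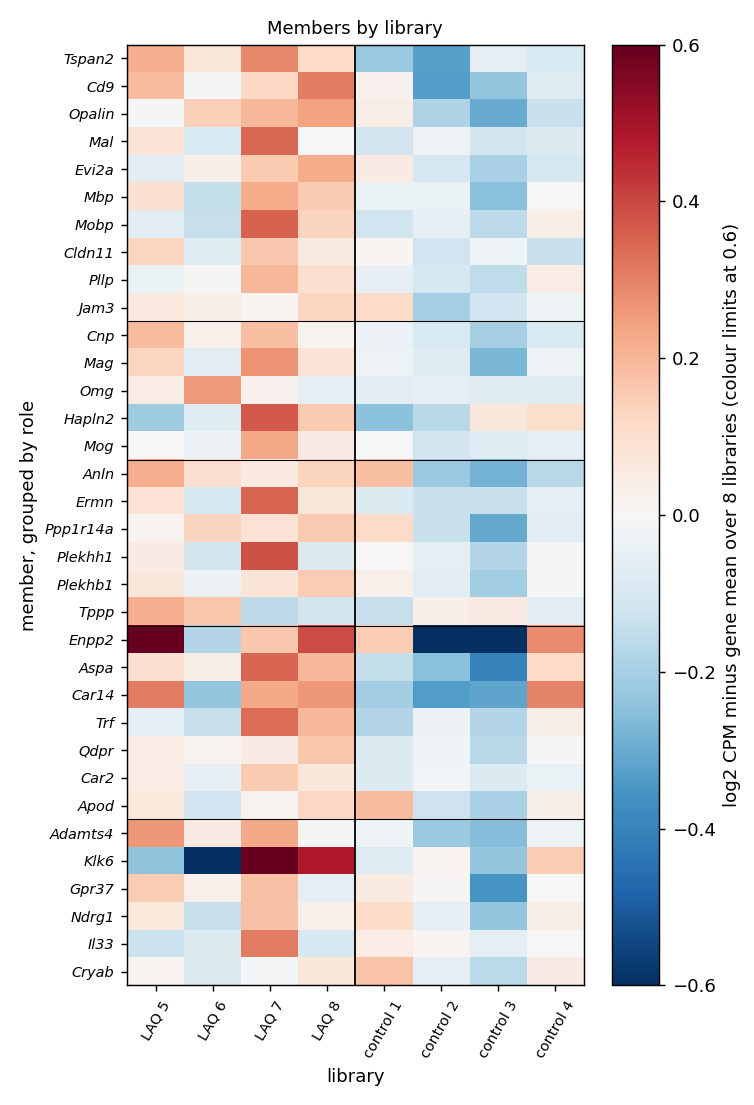
Log2 CPM of each member minus its mean over the 8 libraries (colour), with members down the page grouped by role and LAQ libraries left of control libraries. LAQ 7 is high and control 3 low for most members, LAQ 6 resembles the controls for many, and Tppp has its lowest value in LAQ 7.

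When the score of those neuronal markers was added as a covariate, the median log2 fold change of the members was 0.076. Of the 34 members, 25 were above 0. At an unadjusted edgeR p under 0.05, 6 members were higher and 0 lower, beside 9.30% and 11.3% of all genes tested. In that fit Mbp stood at 0.026 ± 0.084 (SE), Mobp at -0.062 ± 0.073, Mog at 0.017 ± 0.070 and Mag at 0.090 ± 0.085 on the log2 scale. Tspan2 remained at 0.28 ± 0.089 (SE), Cd9 at 0.23 ± 0.11 and Cnp at 0.18 ± 0.080. Omg and Tppp, which neurons also express, were larger there than without the covariate, at 0.22 ± 0.078 and 0.23 ± 0.076 (SE). A second covariate, chosen after the data had been seen, was the score of 20 other myelin and oligodendrocyte genes that are not among the 34. With it the median log2 fold change of the members was 0.041, and 24 of 34 were above 0. At an unadjusted edgeR p under 0.05, 3 members (Tspan2, Omg and Tppp) were higher and 0 lower, beside 8.48% and 9.52% of all genes. The share of members higher was thus close to the share of all genes higher. Tspan2 stood at 0.32 ± 0.10 (SE, edgeR adjusted p = 0.146) and Mbp at -0.017 ± 0.083 (SE). That score ran from -0.14 to 1.08 in LAQ and from -1.17 to 0.067 in control, so this fit gives the members relative to other oligodendrocyte RNA and not their level in the tissue.

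**Figure D5:**
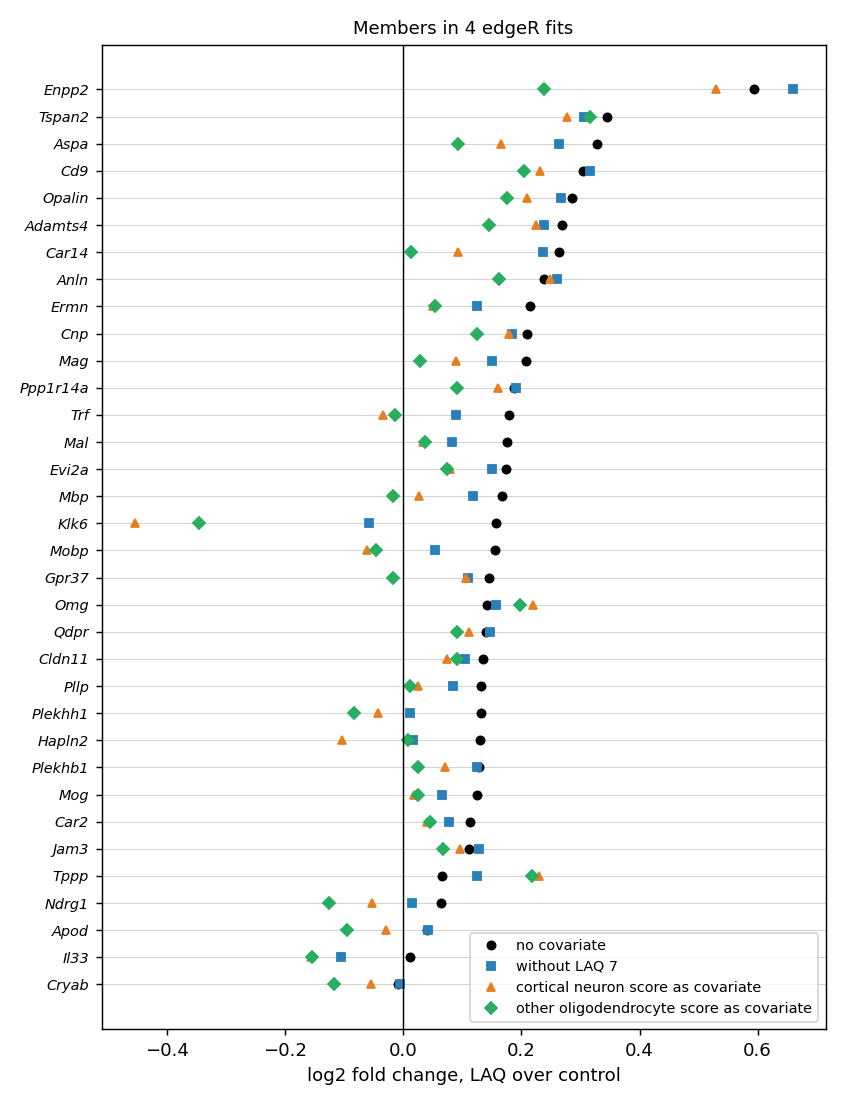
Log2 fold change of LAQ over control (x axis) of each member (y axis, ordered by the value with no covariate) in 4 edgeR fits. The points with the cortical neuron score or the other oligodendrocyte score lie closer to 0 for Mbp, Mobp, Mog and Mag, while Tspan2 stays between 0.28 and 0.35.

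The 4 upstream sequences are shown because their genes, Cd9, Opalin, Cnp and Mag, had the smallest p-values among members for which RefSeq's promoter table on GRCm38.p6 gave at least 200 bases ahead of both the RefSeq and the GENCODE start. The table matched 24 of 34 members, and in 21 of these the bases after the start lay in a transcript of the gene. Sequences run 5′ to 3′ on the strand of the gene, and capitals mark CTGGNAC and ACAANG on either strand. CTGGNAC is a loose pattern for the site bound by Myrf, and ACAANG one for the site of Sox factors such as Sox10. N is any base, so a marked stretch can differ from the factor's site at that base. On the other strand GTCCCAG reads CTGGGAC and GTTCCAG reads CTGGAAC. Of the sequences shown, only those of Cnp and Mag hold the narrower CTGGCAC.
Cd9, chr6:125494792-125495010, minus strand: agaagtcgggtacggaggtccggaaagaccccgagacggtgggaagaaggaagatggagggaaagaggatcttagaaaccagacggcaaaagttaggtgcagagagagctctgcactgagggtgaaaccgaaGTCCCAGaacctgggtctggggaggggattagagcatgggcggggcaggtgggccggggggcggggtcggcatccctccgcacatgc
Opalin, chr19:41077114-41077363, minus strand: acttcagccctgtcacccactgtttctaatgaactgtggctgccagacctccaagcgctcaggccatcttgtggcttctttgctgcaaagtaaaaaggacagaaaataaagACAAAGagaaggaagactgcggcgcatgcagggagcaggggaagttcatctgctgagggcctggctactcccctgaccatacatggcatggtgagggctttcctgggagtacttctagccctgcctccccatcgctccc
Cnp, chr11:100574689-100574903, plus strand: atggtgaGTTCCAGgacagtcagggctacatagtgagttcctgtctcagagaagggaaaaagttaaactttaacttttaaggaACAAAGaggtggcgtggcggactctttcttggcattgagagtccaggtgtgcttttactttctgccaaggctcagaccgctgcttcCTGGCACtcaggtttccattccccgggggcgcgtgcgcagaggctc
Mag, chr7:30914874-30915113, minus strand: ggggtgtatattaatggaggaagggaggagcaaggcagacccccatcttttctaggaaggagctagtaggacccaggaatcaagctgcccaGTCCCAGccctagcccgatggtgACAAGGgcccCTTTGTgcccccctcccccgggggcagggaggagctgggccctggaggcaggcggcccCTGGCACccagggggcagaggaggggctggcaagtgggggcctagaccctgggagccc
CTGGNAC occurred in the 250 bases upstream of the first listed start in 9 of 24 members, against 16.0% of 27025 genes in the table. ACAANG occurred in 11 of 24 members, against 36.6% of those genes. The other spellings searched were CTGGCAC, which is contained in CTGGNAC (3 of 24 members, 4.14% of genes), CTTGGNAC (0 of 24 members, 3.20% of genes), and ACAAAG (6 of 24 members, 16.5% of genes) and ACAATG (3 of 24 members, 11.0% of genes), which are contained in ACAANG. All 6 were chosen with the windows in view. A match is a run of letters and does not show that the factor binds there. Anln and Ermn met the same length rule, with p-values just above that of Mag, and are not printed. The window of Anln held 0 matches to CTGGNAC and 0 to ACAANG, and that of Ermn 0 and 2.

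Genes of the same lineage outside the 34 were counted by list, beside 49.7% of all genes tested with a log2 fold change above 0 and 4.77% higher at an unadjusted edgeR p under 0.05. Of the 20 other structural genes, 19 had a log2 fold change above 0 with a median of 0.13, and 3 (Gjb1, Gsn and Tmem125) had an unadjusted edgeR p under 0.05, while 0 passed after adjustment over all genes. Gjb1, a gap junction protein, averaged 54.6 ± 2.45 CPM in LAQ and 43.0 ± 5.03 CPM in control (SD, n = 4 each), with no overlap between the groups. Of 14 genes of myelin lipid synthesis, 9 were above 0 and 5 below, with a median of 0.14, and a range of -0.18 to 0.33. Sqle and Fdft1, enzymes of sterol synthesis, stood at -0.082 ± 0.10 and -0.10 ± 0.072 (SE). An unadjusted edgeR p under 0.05 was found for 6, all higher and none past adjustment. They were Cers2 and Fa2h (ceramide synthesis and fatty acid hydroxylation, log2 fold changes of 0.25 ± 0.076 and 0.26 ± 0.10, SE), Gal3st1 and Ugt8a (sulfatide and galactosylceramide synthesis, 0.26 ± 0.092 and 0.24 ± 0.091), Elovl7 and Degs1.

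Of 10 transcription regulators of the lineage, 7 were above 0 with a median log2 fold change of 0.046, and 0 had an unadjusted edgeR p under 0.05. Myrf stood at 0.13 ± 0.092 (SE) and Sox10 at 0.17 ± 0.081 (SE). Of 11 measured markers of precursors and newly formed oligodendrocytes, 4 were above 0 with a median of -0.14, and 0 had an unadjusted edgeR p under 0.05. The precursor gene Pdgfra stood at -0.18 ± 0.15 (SE) and Gpr17, a receptor of cells about to mature, at -0.21 ± 0.11, while Enpp6 and Bcas1, which mark newly formed oligodendrocytes, stood at 0.18 ± 0.10 and 0.14 ± 0.080. The difference between the mature genes and these lists was not tested.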

How the data were processed

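RNA-seq of corpus callosum was deposited as 2 tables with 8 libraries each, 4 LAQ and 4 control, grouped by the sample titles. The authors deposited raw counts per gene symbol. A second table by the authors gives normalized signal and was used only to check that each library's values are its counts over a single constant. The submitters' processing notes list STAR 2.5.2b, HTSeq, DESeq2 1.10.1 and the build GRCm38.p3, but annotation release and strand setting are not given in the sources used here. RNA was poly(A)-selected, per the labels.

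Members and gene lists were chosen with earlier results of these data known. The 41128 genes were reduced by filterByExpr (minimum count 10, minimum total 15) to 15771, scaled by TMM and tested with edgeR 4.0.16 in R 4.3.3 (quasi-likelihood, two-sided, no covariate, all 8 libraries), with Benjamini-Hochberg adjustment over all genes. The standard error is the log2 fold change divided by the square root of F. Alternatives used DESeq2 1.42.0, limma-voom 3.58.1, other normalizations and filters, marker scores as covariates (mean z score of log2 CPM, prior count 2) and each library left out in turn. On simulated data the steps recovered 60% of 50 genes set to a 1.5-fold change and 90% of 50 set to 2-fold. Of 190 genes called there, 15 were false. Smaller changes were not simulated, and Enpp2, at 1.51-fold, was the only member above 1.5-fold. Exon lengths and positions came from GENCODE M21 on GRCm38. Per-library values were given for Mbp, Mog, Mag, Mobp and Cnp, the 10 members of smallest p, those whose groups did not overlap and the 3 of lowest log2 fold change. Enpp2, Car14, Tppp, Klk6 and Trf were added after their values had been seen. Figures were drawn with matplotlib 3.10.9.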

Additional observations from a re-analysis of the deposited data

Results flagged for a closer look

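In 4 of 68 groups of 4 libraries, 1 library stood apart from the other 3 in the CPM of a member by Dixon's criterion, where chance flags about 1 group in 20. Mbp in control 3 was at 6391 CPM, beside 7414 to 7619.8 CPM in the other control libraries. Gpr37 in control 3 was at 90.5 CPM, beside 116 to 120.1 CPM. Car14 in control 4 was at 45.0 CPM, beside 29.1 to 31.7 CPM in the other controls. Il33 in LAQ 7 was at 55.7 CPM, beside 41.0 to 42.2 CPM in the other LAQ libraries. Control 3 also had the lowest share of counts in the 34 genes, and LAQ 7 the highest.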

How the results depend on the processing

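No paired analysis was possible because the replicate numbers of the groups are not shared. The count of members past an adjusted p of 0.05 was 0 under every alternative run with edgeR or limma-voom and with each library left out. It was 1 (Tspan2) with DESeq2. Over all genes, 0.736% were higher and 1.40% lower at that level in edgeR without LAQ 7. These shares were 1.49% and 1.94% with the cortical score, and 0.222% and 0.235% with the other oligodendrocyte score. The median log2 fold change of the members stayed above 0 in all alternatives, from 0.12 to 0.19 with 1 library left out. It was 0.041 with the other oligodendrocyte score. The count of members at an unadjusted p under 0.05, all higher in LAQ, ran from 6 (without control 3) to 15 (without LAQ 6). The shares of all genes higher in these 2 fits were 4.98% and 4.00%. It was 3 members with the other oligodendrocyte score and 5 with the choroid plexus score, beside 8.48% and 3.24% of all genes higher. Of the single-member values, 616 kept their sign and side of the threshold and 29 changed sign in members whose edgeR adjusted p without a covariate was 0.521 or more. With the cortical score, Apod was -0.030, Hapln2 -0.10, Il33 -0.16, Klk6 -0.46, Mobp -0.062, Ndrg1 -0.053, Plekhh1 -0.043 and Trf -0.035. With the other oligodendrocyte score, Apod was -0.10, Gpr37 -0.018, Il33 -0.16, Klk6 -0.35, Mbp -0.017, Mobp -0.046, Ndrg1 -0.13, Plekhh1 -0.085 and Trf -0.015. With the choroid plexus score, Apod was -0.056. Without LAQ 7 and control 2 together, a choice made after seeing the data, Hapln2 was -0.015, Il33 -0.10 and Klk6 -0.042. Cryab was 0.0023 without an expression filter. With 1 library left out, Apod ran from -0.011 to 0.12, Cryab from -0.057 to 0.052, Il33 from -0.11 to 0.059 and Klk6 from -0.059 to 0.36. The cause of these sign changes was not tested. Depth limited Klk6 most, with 33 to 90 counts per library.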
